A study of Homo sapiens with 12 samples.

Results

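The transcriptomes of cells labelled A375 and SK-MEL-28, both long-established lines from human melanoma, were compared under the same drug, etoposide alone. Etoposide traps topoisomerase II on cut DNA and so causes double-strand breaks. The comparison used the 6 libraries whose labels name etoposide as the only treatment, 3 labelled A375 and 3 labelled SK-MEL-28, out of 12 libraries in the series. The other libraries also received rapamycin and did not enter. Both lines were grown in the same medium with serum, RNA was polyA-enriched, and the labels give neither a dose nor a time for the drug. No untreated library was analysed here, so a standing difference between the cells and a different response to etoposide cannot be told apart. The study calls its replicates biological, but no label says whether the 3 libraries came from separate cultures. P-values therefore measure the spread between these libraries.

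Melanoma cells keep parts of the melanocyte programme to different degrees. The transcription factors SOX10, PAX3 and MITF switch on the enzymes and matrix proteins of the pigment granule. Cells that lose this programme often gain neural crest genes such as NGFR or an invasive set marked by AXL, EGFR, WNT5A and AP-1 factors. Many melanoma lines also secrete chemokines, interleukins, proteases and matrix proteins, a set that overlaps with the secretory programme of senescent or DNA-damaged cells and is controlled in good part by NF-kappaB.

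Library totals ran from 28189501 to 32499337 counts. Values are given as CPM, the counts of a gene relative to the library's total after TMM scaling, in each library, or as mean ± SD over the 3 libraries labelled A375 against the 3 labelled SK-MEL-28. A log2 fold change, given ± its standard error (SE), is positive where the libraries labelled SK-MEL-28 were higher, and a gene was called when edgeR's quasi-likelihood test gave a Benjamini-Hochberg adjusted p under 0.05 and the fold change exceeded 1.5. Of 19025 genes tested, 2477 were called (13.0%), 1085 higher (5.70%) and 1392 lower (7.32%) in the libraries labelled SK-MEL-28. The libraries of the labels did not overlap for 44.6% of all tested genes and 98.7% of called genes. For a called gene, lack of overlap thus adds little to the call. In a principal component analysis the labels separated along the leading axis, with 54.7% of the variance. The next axis (12.3%) set replicate 1 of A375 apart from the other libraries. Without that library 2366 genes were called.

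Most genes differed little between the labels. Among 12730 genes with a mean of at least 100 counts, 95.5% lay within 2-fold and 87.8% within 1.5-fold, and 108 genes (0.848%) differed by over 4-fold, 34 higher and 74 lower. There was no gene at 0 in all 3 libraries of one label with a mean of 100 normalized counts or more in the other. Lowering that mean to 30 gave 1 gene at 0 in the libraries labelled A375 and 2 in those labelled SK-MEL-28. The labels thus differed by graded levels with a short tail of large differences, most of them toward lower expression in the libraries labelled SK-MEL-28.

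**Figure D1:**
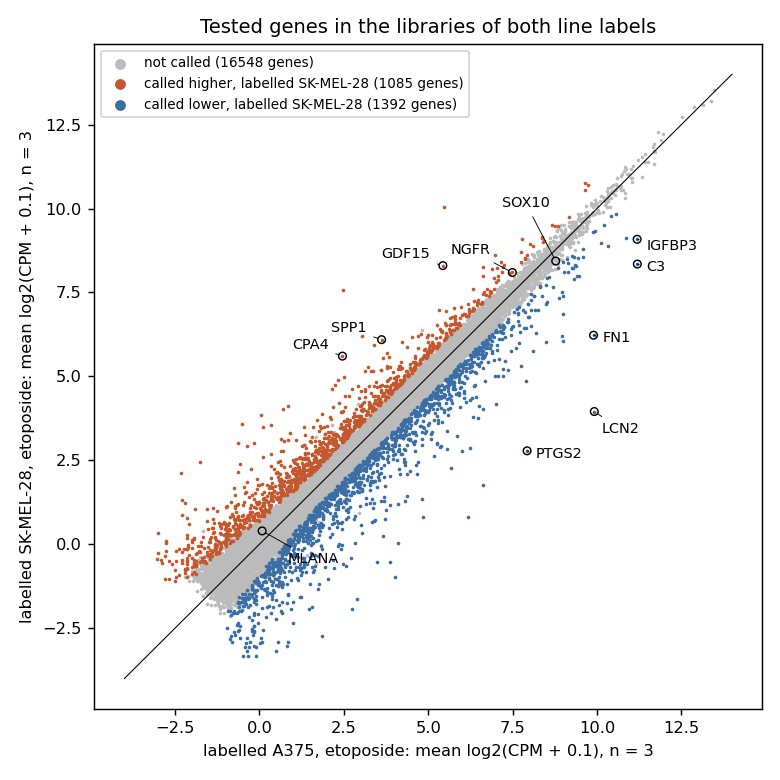
Mean expression of the 19025 tested genes in the 3 libraries labelled A375 (horizontal axis) and the 3 labelled SK-MEL-28 (vertical axis), as log2(CPM + 0.1), with the line of equal expression. Points called higher (1085) or lower (1392) are coloured and circles mark genes named in the text; LCN2, PTGS2, FN1 and C3 lie far below the line and GDF15, SPP1 and CPA4 above it.

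The melanocyte lineage genes were a check of the labels. SK-MEL-28 is generally classed with the lines that express melanocyte differentiation genes and A375 with poorly pigmented lines. SOX10, the factor that specifies the lineage, was high under both labels, at 455, 487 and 373 CPM in the libraries labelled A375 and 322, 302 and 415 CPM in those labelled SK-MEL-28. The ranges overlapped and SOX10 was not called (log2 fold change -0.34 ± 0.11 (SE), adjusted p = 0.0330). MITF, the factor that drives pigment genes, stood at 21.2, 18.4 and 19 CPM and 30.1, 26.9 and 29.1 CPM. The groups did not overlap, but MITF stayed under the fold threshold (log2 fold change 0.56 ± 0.08 (SE), adjusted p = 2.13e-04). PAX3, which acts with SOX10 upstream of MITF, was not called either (14.8 ± 0.925 against 11.3 ± 0.790 CPM).

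The products of the pigment programme were near the detection limit in all 6 libraries. TYR, tyrosinase, the enzyme of the first step of melanin synthesis, had 6, 0 and 2 counts in the libraries labelled A375 and 2, 0 and 2 counts in those labelled SK-MEL-28, and did not pass the filter on low counts. Counts are the deposited values, and 1 count need not be 1 sequenced read. MLANA, a melanosome protein used as a diagnostic marker, stood at 0.830, 0.976 and 1.07 CPM and 1.39, 1.27 and 0.986 CPM, with overlapping ranges. PMEL, which forms the fibrils inside the melanosome, stood at 1.56, 2.30 and 2.28 CPM and 1.69, 1.95 and 2.06 CPM, again overlapping. Neither MLANA (adjusted p = 0.423) nor PMEL (adjusted p = 0.789) was called. The other enzymes of the pathway were called higher in the libraries labelled SK-MEL-28 but from levels close to 1 CPM. TYRP1 was at 0.578 ± 0.184 against 1.55 ± 0.254 CPM (log2 fold change 1.42 ± 0.33 (SE), adjusted p = 0.00544). DCT was at 0.724 ± 0.116 against 1.78 ± 0.419 CPM (log2 fold change 1.29 ± 0.30 (SE), adjusted p = 0.00577). KIT, TRPM1 and SLC24A5 had at most 5 counts in any library. These levels go against what is known of SK-MEL-28, so the libraries are referred to by their label throughout. Which line was in culture, and whether both labels hold cells of 1 line, was not tested. The fold changes below are therefore differences between labels and may not be differences between lines.

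**Figure D2:**
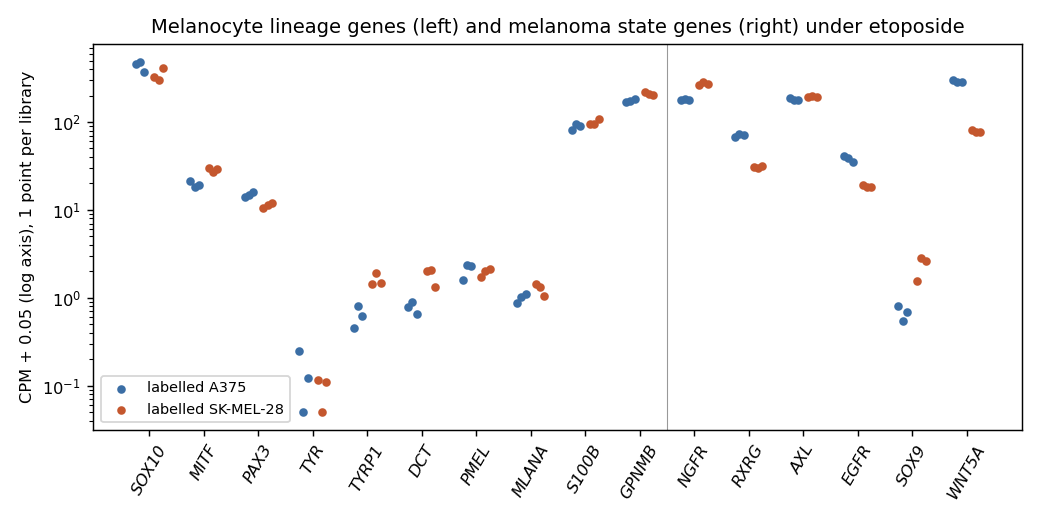
CPM + 0.05 on a log axis for 10 melanocyte lineage genes (left of the line) and 6 melanoma state genes (right), with 1 point per library. SOX10, S100B and GPNMB are high under both labels, TYR, TYRP1, DCT, PMEL and MLANA lie near or below 2 CPM under both, and RXRG, EGFR and WNT5A are lower in the libraries labelled SK-MEL-28.

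In the whole list of 33 melanocyte lineage genes, 29 were tested. Of these, 2 were higher, 7 lower and 20 not called (31.0% called, against 13.0% of all genes). The median log2 fold change was -0.28, against one near 0 over all genes tested. BCL2A1, an anti-apoptotic gene that MITF and NF-kappaB can both activate, was at 11, 12.5 and 9.54 CPM in the libraries labelled A375 and 0.232, 0.839 and 0.709 CPM in those labelled SK-MEL-28 (log2 fold change -4.20 ± 0.28 (SE), adjusted p = 1.28e-07). IRF4, a pigmentation factor, was at 3.31 ± 0.283 against 0.344 ± 0.183 CPM (log2 fold change -3.24). OCA2, a melanosomal channel, was at 4.93 ± 0.589 against 0.868 ± 0.1501 CPM (log2 fold change -2.50). S100A1, a calcium-binding protein, was the most abundant of the called members, at 227 ± 19.9 against 86.2 ± 3.89 CPM (log2 fold change -1.40). RAB38, which carries cargo to melanosomes, was at 48.6 ± 2.89 against 26.6 ± 3.65 CPM (log2 fold change -0.87). GPNMB, a melanosomal and lysosomal glycoprotein (175 ± 5.24 against 208 ± 7.83 CPM), and ERBB3, the neuregulin receptor of the lineage (254 ± 12.1 against 209 ± 9.06 CPM), were expressed under both labels and not called. Of the promoters of this list, 26 were found in RefSeq (GRCh38.p14, 250 bases before to 50 after the start site). The E-box letters CATGTG, favoured by MITF, were on either strand of 11 of them (42.3%), against 11.2% of all 27305 promoters. The letters CACGTG were in 2 (7.69%, against 7.43%). These shares depend on which genes were put in the list and were not split by call.

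Genes of the other melanoma states differed in both directions. In the neural crest-like list 21 of 23 genes were tested. Of these, 3 were higher and 7 lower (47.6% called, against 13.0% of all genes), with a median of -0.30. NGFR, the low-affinity neurotrophin receptor that marks this state, was at 178, 182 and 179 CPM in the libraries labelled A375 and 265, 283 and 271 CPM in those labelled SK-MEL-28 (log2 fold change 0.60 ± 0.05 (SE), adjusted p = 6.53e-07), a difference just past the fold threshold. RXRG, a retinoid receptor of the same state, went the other way, at 68.1, 72.5 and 71.3 CPM and 31.1, 29.6 and 31.8 CPM (log2 fold change -1.20 ± 0.06 (SE), adjusted p = 1.23e-08). AQP1, a water channel, was near the threshold of the test (3.80 ± 0.919 against 2.43 ± 0.136 CPM, adjusted p = 0.0345) and lost its call under 6 alternatives, and GFRA2 was under 1 CPM in every library. GDNF, the ligand of the RET receptor complex, was at 169.9, 156 and 165 CPM and 37.1, 37.5 and 35.3 CPM (log2 fold change -2.16 ± 0.06 (SE), adjusted p = 2.77e-11). RET itself had at most 11 counts in any library. IL1RAP, the co-receptor for interleukin-1, was higher at 10.3, 11 and 10.3 CPM and 62.8, 55.9 and 64.5 CPM (log2 fold change 2.54 ± 0.08 (SE), adjusted p = 1.41e-10). The values for IL1RAP are of 1 of 2 rows with that name, and its locus holds 2 gene names. SNAI2, a repressor of epithelial genes (20.9 ± 1.53 against 8.77 ± 0.523 CPM), and NES, the intermediate filament nestin (77.5 ± 6.73 against 41.4 ± 1.84 CPM), were lower. L1CAM, a neural adhesion molecule, was higher (88 ± 6.42 against 155 ± 4.78 CPM).

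All 33 genes of the undifferentiated, AXL-high list were tested, with a median of 0.02. Of these, 8 were higher, 10 lower and 15 not called (54.5% called, against 13.0% of all genes). AXL, the receptor kinase that names the state, did not pass the test, at 186, 176 and 176 CPM and 193, 197 and 193 CPM (adjusted p = 0.0859). Other defining genes of the state were lower in the libraries labelled SK-MEL-28. EGFR was at 40.8, 38.5 and 35 CPM and 19.1, 18.1 and 18.3 CPM (log2 fold change -1.04 ± 0.08 (SE), adjusted p = 4.74e-07). WNT5A, a ligand of non-canonical Wnt signalling, was at 300.2, 285 and 286 CPM and 81.7, 77.8 and 76.4 CPM (log2 fold change -1.89 ± 0.05 (SE), adjusted p = 3.42e-11). FOSL1 and JUN, both AP-1 subunits, were at 154 ± 5.67 against 71.6 ± 6.69 CPM (log2 fold change -1.11) and 132 ± 3.84 against 61.2 ± 4.21 CPM (log2 fold change -1.11). No library of one label reached the range of the other for these 4 genes. In the opposite direction stood the YAP target CYR61 (log2 fold change 1.11 ± 0.07), the caveolar coat gene CAV1 (log2 fold change 1.24 ± 0.06), the Wnt antagonist DKK1 (log2 fold change 0.90 ± 0.06) and SOX9, which was low under both labels (log2 fold change 1.84 ± 0.32). CD44 and SERPINE2, abundant members of the list, were not called (518 ± 16.4 against 498 ± 9.28 CPM and 9014 ± 336 against 8730 ± 197 CPM). The AP-1 letters TGANTCA were in 2 of the 27 promoters of this list found (7.41%), against 7.76% of all promoters.

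The list with the largest share of called genes was that of inflammatory and senescence-associated secreted factors, where 24 of 31 tested genes were called (77.4%, against 13.0% of all genes), 18 lower and 6 higher, with a median of -0.92. Chemokines made up much of the lower side. CXCL8, which attracts neutrophils, was at 476, 541 and 526 CPM in the libraries labelled A375 and 119.9, 108 and 118 CPM in those labelled SK-MEL-28 (log2 fold change -2.16 ± 0.06 (SE), adjusted p = 6.25e-11). CXCL1, of the same family, was at 121, 134 and 134 CPM and 17.4, 18.6 and 18.4 CPM (log2 fold change -2.84 ± 0.07 (SE), adjusted p = 9.56e-12). CXCL2 (13.4 ± 2.13 against 1.95 ± 0.693 CPM) and CXCL3 (10.6 ± 2.39 against 1.56 ± 0.172 CPM) were lower from much lower levels. For each of these 4 chemokines every library labelled SK-MEL-28 was below every library labelled A375. CCL2, a monocyte chemokine, was at 59.8 ± 0.833 against 21.7 ± 2.96 CPM (log2 fold change -1.46). CCL20 (3.05 ± 0.664 against 0.702 ± 0.0596 CPM) and CXCL10 (1.60 ± 0.196 against 0.524 ± 0.179 CPM) were lower at levels of a few CPM or less.

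Several interleukins and regulators of NF-kappaB were lower as well. IL11, a gp130 cytokine, was at 84.5, 88.6 and 84.5 CPM and 17.9, 22.8 and 21.7 CPM (log2 fold change -2.05 ± 0.08 (SE), adjusted p = 1.48e-09). LIF, of the same family, was at 307 ± 24.2 against 126 ± 12.1 CPM (log2 fold change -1.28). IL1A and IL1B, the interleukin-1 agonists, were at 95.3 ± 0.881 against 43.3 ± 3.25 CPM (log2 fold change -1.14) and 16.5 ± 1.53 against 9.01 ± 0.937 CPM (log2 fold change -0.88). NFKBIA and TNFAIP3, both NF-kappaB targets that dampen the pathway, were at 88.2 ± 3.92 against 46.6 ± 1.98 CPM (log2 fold change -0.92) and 55.7 ± 1.98 against 24.6 ± 0.878 CPM (log2 fold change -1.18). IL6 was called higher, at 0.797, 1.32 and 0.534 CPM and 3.15, 3.59 and 3.23 CPM (log2 fold change 1.90 ± 0.29 (SE), adjusted p = 2.68e-04), although its level was under 4 CPM in all 6 libraries. TNF did not pass the filter. IL24, one of the most abundant cytokine transcripts of the list (701 ± 23.2 against 629 ± 7.11 CPM), IL32 (11.2 ± 1.08 against 12.8 ± 1.10 CPM) and the chemokine CCL5 (0.404 ± 0.104 against 0.439 ± 0.216 CPM) were not called.

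IGFBP3, which binds insulin-like growth factors and was the most abundant gene of this list to be called, was at 2310, 2351 and 2342 CPM and 505, 540.0 and 583 CPM (log2 fold change -2.11 ± 0.05 (SE), adjusted p = 2.29e-11). IGFBP4 and IGFBP5, of the same family, were higher (98.7 ± 4.195 against 252 ± 18.3 CPM and 29.9 ± 1.51 against 56.4 ± 3.56 CPM). TNFRSF11B, the decoy receptor osteoprotegerin, was lower at 57.5 ± 4.48 against 9.21 ± 0.753 CPM (log2 fold change -2.64), as was SERPINB2, an inhibitor of plasminogen activators (log2 fold change -2.99 ± 0.12). The largest changes of the list in the higher direction were of proteases at low levels. MMP3, stromelysin-1, had 9, 3 and 5 counts in the libraries labelled A375 and 192, 149 and 153 counts in those labelled SK-MEL-28 (log2 fold change 4.75 ± 0.31 (SE), adjusted p = 1.17e-07). PLAU, urokinase, had 3, 2 and 5 counts and 57, 73 and 77 counts (log2 fold change 4.23 ± 0.39 (SE), adjusted p = 3.01e-06), while PLAUR, its receptor, was lower (log2 fold change -0.69 ± 0.06).

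**Figure D3:**
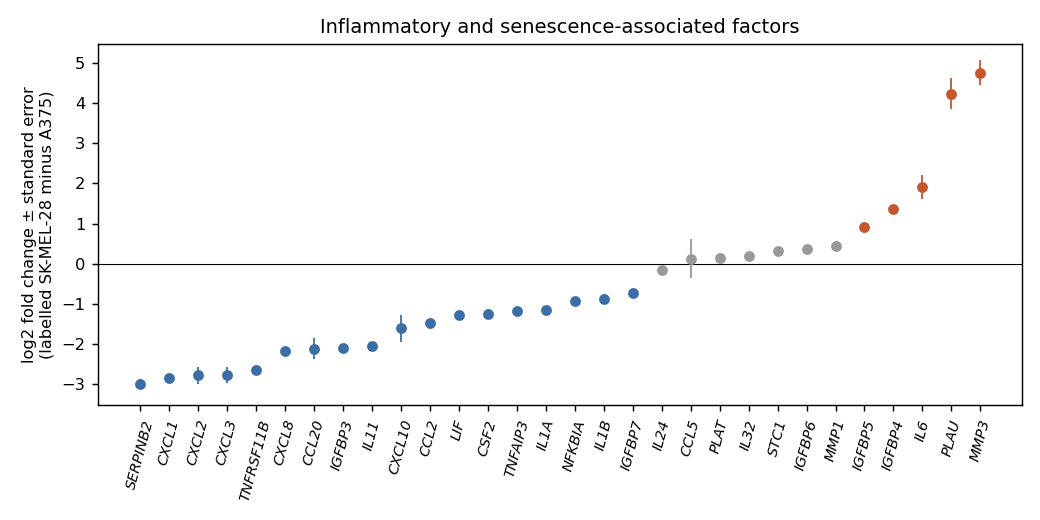
Log2 fold change (libraries labelled SK-MEL-28 minus A375) with its standard error for tested inflammatory and senescence-associated factors, ordered by size. The 18 genes called lower (left) include CXCL8, CXCL1, IL11 and IGFBP3, those called higher (right) are led by MMP3 and PLAU, and the grey genes were not called.

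Outside that list, LCN2, PTGS2, C3 and SOD2 were named by their large or abundant differences. LCN2, lipocalin-2, a secreted iron-carrier binding protein and NF-kappaB target, was at 915, 1005 and 985 CPM in the libraries labelled A375 and 14, 15.2 and 17 CPM in those labelled SK-MEL-28, a 62.8-fold difference (log2 fold change -5.97 ± 0.08 (SE), adjusted p = 5.20e-14). PTGS2, cyclooxygenase-2, which makes prostaglandin precursors, was at 239, 233 and 259 CPM and 7.40, 6.64 and 6.32 CPM (log2 fold change -5.17 ± 0.08 (SE), adjusted p = 1.41e-13). C3, the central complement component, was among the most abundant transcripts to differ, at 2510, 2303 and 2218 CPM and 321, 318 and 336 CPM (log2 fold change -2.85 ± 0.06 (SE), adjusted p = 2.12e-12). Its locus holds 3 gene names, between which reads could be divided. SOD2, the mitochondrial superoxide dismutase and another NF-kappaB target, was at 508, 535 and 499 CPM and 63.5, 66.3 and 71.3 CPM (log2 fold change -2.94 ± 0.06 (SE), adjusted p = 2.12e-12). For all 4 genes the libraries within a label differed by far less than the labels did.

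The promoters of 4 of these genes are shown because they carry the letters of an NF-kappaB site and belong to genes that differed in both directions: LCN2, CXCL1 and TNFAIP3 were lower and IL6 higher in the libraries labelled SK-MEL-28. The sequences are from RefSeq (GRCh38.p14), 250 bases before to 50 after the start site, written 5′ to 3′ along the gene, with matches to the NF-kappaB consensus in capitals.
LCN2 chr9:128149203-128149502 plus strand: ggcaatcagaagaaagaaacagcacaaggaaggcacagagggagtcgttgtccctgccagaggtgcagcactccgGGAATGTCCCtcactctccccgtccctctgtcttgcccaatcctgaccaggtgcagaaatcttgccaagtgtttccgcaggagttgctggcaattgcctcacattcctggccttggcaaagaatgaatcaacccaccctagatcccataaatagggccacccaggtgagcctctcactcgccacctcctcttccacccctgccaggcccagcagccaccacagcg
CXCL1 chr4:73869143-73869442 plus strand: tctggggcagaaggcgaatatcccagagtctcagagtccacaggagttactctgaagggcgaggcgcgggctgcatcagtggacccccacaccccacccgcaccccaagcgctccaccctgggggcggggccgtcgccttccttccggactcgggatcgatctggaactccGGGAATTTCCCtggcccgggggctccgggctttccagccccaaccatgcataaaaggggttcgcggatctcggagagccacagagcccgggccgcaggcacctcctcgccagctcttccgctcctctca
TNFAIP3 chr6:137867009-137867308 plus strand: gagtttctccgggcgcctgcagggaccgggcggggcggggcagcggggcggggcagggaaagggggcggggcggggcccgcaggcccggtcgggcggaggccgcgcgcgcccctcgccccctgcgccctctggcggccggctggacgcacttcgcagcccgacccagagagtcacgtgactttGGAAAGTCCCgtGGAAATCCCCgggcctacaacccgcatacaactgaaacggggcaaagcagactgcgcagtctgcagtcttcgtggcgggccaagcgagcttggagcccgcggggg
IL6 chr7:22726950-22727249 plus strand: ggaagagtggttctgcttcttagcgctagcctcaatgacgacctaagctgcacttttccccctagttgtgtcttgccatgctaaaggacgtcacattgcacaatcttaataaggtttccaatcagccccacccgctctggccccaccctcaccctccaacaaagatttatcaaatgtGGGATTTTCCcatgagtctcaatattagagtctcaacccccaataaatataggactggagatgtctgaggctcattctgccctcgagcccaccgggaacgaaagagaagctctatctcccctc

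The NF-kappaB consensus, searched on both strands and chosen after the values were seen, was in 13 of the 26 promoters of the inflammatory list found in RefSeq (50%), against 5.72% of all 27305 promoters. Within the list the match did not separate the genes by direction. Of the tested genes whose promoters held it, 7 were lower, 2 higher and 2 not called, and of those without it 7 were lower, 2 higher and 1 not called. CXCL1, CXCL2, CXCL3, CXCL10, CCL20, TNFAIP3 and NFKBIA were the lower genes with a match, and IL6 and IGFBP5 the higher ones. The match is a run of letters and not a measured binding site. Its share depends on which genes were put in the list.

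Extracellular matrix genes also differed often, with 23 of 44 tested genes called (52.3%, against 13.0% of all genes). Of these, 8 were higher and 15 lower, and the median of the list was -0.13. FN1, fibronectin, was at 1036, 921 and 904 CPM in the libraries labelled A375 and 79.3, 70.7 and 74.2 CPM in those labelled SK-MEL-28 (log2 fold change -3.67 ± 0.07 (SE), adjusted p = 1.51e-12). TIMP1, an inhibitor of matrix metalloproteinases, was at 1767, 1952 and 1905 CPM and 508, 578 and 593 CPM (log2 fold change -1.74 ± 0.06 (SE), adjusted p = 4.18e-10). For both genes every library labelled SK-MEL-28 was below every library labelled A375. LAMB3, a chain of laminin-332 (log2 fold change -1.71 ± 0.06), COL18A1 (log2 fold change -1.13 ± 0.07), COL9A3 (log2 fold change -0.93 ± 0.06) and the collagen VI chains COL6A2 (201 ± 8.18 against 119 ± 9.98 CPM) and COL6A3 (12.8 ± 1.22 against 3.89 ± 0.182 CPM) were lower as well.

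The higher side of the matrix list was led, beyond MMP3, by SPP1, osteopontin, an integrin ligand, at 10.7, 12.5 and 13.4 CPM and 67.9, 70.9 and 65.7 CPM (log2 fold change 2.48 ± 0.09 (SE), adjusted p = 3.37e-10). COL5A2, a chain of the fibril-regulating collagen V, was at 101, 102 and 93.4 CPM and 302, 309 and 299.9 CPM (log2 fold change 1.62 ± 0.05 (SE), adjusted p = 1.41e-10). COL5A1, a chain of the same collagen, was lower (log2 fold change -0.87 ± 0.07). LAMA5, a laminin chain (log2 fold change 1.24 ± 0.09), and LUM, the proteoglycan lumican (log2 fold change 1.81 ± 0.13), were higher, while DCN, decorin, of the same family as LUM, was lower (log2 fold change -1.86 ± 0.22). SPARC, the most abundant matrix gene of the list (3354 ± 67 against 3272 ± 31.4 CPM), THBS1 (1415 ± 94.7 against 1656 ± 9.88 CPM), TNC (1020 ± 94.3 against 1151 ± 22.6 CPM) and the collagen IV genes COL4A1 and COL4A2 were not called. COL1A1 was under 3 CPM in every library. LOXL4, which cross-links collagen and elastin and was named by its level, was higher at 835, 850.1 and 843 CPM and 1636, 1679 and 1719 CPM (log2 fold change 0.99 ± 0.04 (SE), adjusted p = 2.03e-09).

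Integrins, the receptors for this matrix, differed in both directions. Of 21 tested subunits 13 were called (61.9%, against 13.0% of all genes), 6 higher and 7 lower, with a median of -0.04. The fibronectin receptor subunit ITGA5 was at 807, 763 and 722 CPM and 368, 383 and 388 CPM (log2 fold change -1.01 ± 0.05 (SE), adjusted p = 1.06e-08), in the same direction as FN1. ITGA1, a collagen receptor subunit, was at 647, 595 and 642 CPM and 311, 285 and 300.3 CPM (log2 fold change -1.07 ± 0.05 (SE), adjusted p = 6.30e-09). ITGB8, which activates latent TGF-beta, was at 517, 488 and 537 CPM and 171, 161 and 168 CPM (log2 fold change -1.62 ± 0.05 (SE), adjusted p = 1.51e-10). The libraries of the labels did not overlap for these abundant subunits. Lower subunits of lesser abundance were ITGA7 (24.3 ± 2.88 against 9.99 ± 1.23 CPM), ITGAX (16.1 ± 1.94 against 10.1 ± 0.514 CPM) and ITGAM (2.49 ± 0.486 against 1.23 ± 0.0843 CPM). The most abundant of the higher subunits was ITGA2, just past the fold threshold (96.8 ± 3.83 against 146 ± 6.62 CPM, log2 fold change 0.59 ± 0.06). ITGA4, which binds VCAM1 and fibronectin, was at 14.4, 12 and 14.3 CPM and 53.4, 48.2 and 53.2 CPM (log2 fold change 1.93 ± 0.09 (SE), adjusted p = 3.20e-09). ITGB4, the laminin receptor subunit of hemidesmosomes, was at 9.93, 9.30 and 10.2 CPM and 35.1, 34.1 and 37.7 CPM (log2 fold change 1.86 ± 0.08 (SE), adjusted p = 2.89e-09). ITGA10 was higher too (log2 fold change 1.41 ± 0.09). ITGB3 (log2 fold change -0.59 ± 0.06) was just past the fold threshold and ITGA3 (log2 fold change 0.58 ± 0.05) just short of it. ITGB1, the common partner subunit, ITGAV and ITGA6 were not called.

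Among cadherins and immunoglobulin-type adhesion molecules, 8 of 26 tested genes were called (30.8%, against 13.0% of all genes), 4 in each direction. CDH2, N-cadherin, was at 128, 132 and 142 CPM and 125, 118 and 122 CPM and was not called (adjusted p = 0.0626), and CDH1, E-cadherin, had at most 9 counts in any library. N-cadherin was thus expressed and E-cadherin near 0 under both labels. NCAM1, neural cell adhesion molecule, was at 96.1, 82.7 and 88.5 CPM and 12.1, 13.7 and 14.9 CPM (log2 fold change -2.71 ± 0.09 (SE), adjusted p = 1.51e-10). NTM, neurotrimin (log2 fold change -2.26 ± 0.09), and ICAM1, a leukocyte ligand induced by NF-kappaB (log2 fold change -1.03 ± 0.05), were lower as well. The higher members were protocadherins PCDH10 (11.2 ± 0.294 against 25.6 ± 0.936 CPM), PCDH17 (7.59 ± 1.27 against 20.2 ± 1.91 CPM) and PCDH18 (1.84 ± 0.270 against 4.47 ± 0.818 CPM), and CEACAM1 (3.38 ± 0.943 against 7.85 ± 0.187 CPM). MCAM, the melanoma adhesion molecule, was not called (256 ± 6.89 against 285 ± 13.7 CPM).

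Of 49 tested growth factor genes, 22 were called (44.9%, against 13.0% of all genes), 8 higher and 14 lower, with a median of -0.26. Another 13 of the 62 listed did not pass the filter. Members of the TGF-beta superfamily were lower. BMP2 was at 98.9, 94.3 and 99.8 CPM and 16.4, 16.5 and 15.5 CPM (log2 fold change -2.60 ± 0.06 (SE), adjusted p = 1.45e-11). INHBA, which forms activin A, was at 467, 456 and 476 CPM and 166, 158 and 157 CPM (log2 fold change -1.54 ± 0.05 (SE), adjusted p = 1.09e-10). BMP6 (log2 fold change -3.51 ± 0.19), BMP7 (log2 fold change -1.43 ± 0.11) and BMP4 (log2 fold change -0.87 ± 0.20) had the same direction. GDF15, a distant member of the superfamily that is induced by cell stress, was higher. It was at 43.7, 44.2 and 41.5 CPM in the libraries labelled A375 and 281, 333 and 329.9 CPM in those labelled SK-MEL-28 (log2 fold change 2.87 ± 0.07 (SE), adjusted p = 1.46e-11).

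Ligands of the EGF receptor family were split. AREG, amphiregulin, was lower at 37.6, 38.3 and 37.8 CPM and 7.36, 7.88 and 8.26 CPM (log2 fold change -2.27 ± 0.08 (SE), adjusted p = 4.04e-10). BTC was lower at 4.52 ± 0.271 against 1.45 ± 0.295 CPM (log2 fold change -1.63). EGF itself was higher at 4.58, 2.89 and 3.52 CPM and 8.86, 8.76 and 8.81 CPM (log2 fold change 1.26 ± 0.16 (SE), adjusted p = 6.45e-05). TGFA, by far the most abundant ligand of the family, was not called (913 ± 18.9 against 1094 ± 24.1 CPM). Other differences included KITLG, the ligand of KIT (log2 fold change 1.31 ± 0.18), and PDGFA (log2 fold change 0.86 ± 0.12), both higher, and HGF, the ligand of MET (log2 fold change -2.02 ± 0.35), lower. GAS6 and PROS1, both ligands of the AXL family, moved apart, with GAS6 lower (log2 fold change -1.08 ± 0.09) and PROS1 higher (log2 fold change 1.04 ± 0.09). VEGFA, FGF2 and NRG1 were not called.

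Receptor tyrosine kinases were called in 16 of 39 tested genes (41.0%, against 13.0% of all genes), 8 in each direction. The median of the list was 0.02. EPHA2, an ephrin receptor, was at 146, 129 and 121 CPM and 285, 312 and 311 CPM (log2 fold change 1.20 ± 0.07 (SE), adjusted p = 2.64e-08). EPHA3 (log2 fold change 1.08 ± 0.07) and the collagen receptor DDR2 (log2 fold change 0.86 ± 0.08) were higher as well. FGFR1 was lower at 79.4, 78.1 and 77.2 CPM and 33.4, 37.2 and 35.6 CPM (log2 fold change -1.14 ± 0.06 (SE), adjusted p = 1.84e-08). EGFR, EPHB2 (log2 fold change -0.98 ± 0.08), FLT1 (log2 fold change -0.91 ± 0.08) and ALK (log2 fold change -1.31 ± 0.10) were lower as well. MET (119 ± 8.20 against 114 ± 2.43 CPM), IGF1R (150.3 ± 9.34 against 171 ± 5.40 CPM), PDGFRB (11.7 ± 0.323 against 15 ± 1.38 CPM) and AXL were not called.

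The ERK pathway lies downstream of these receptors. Of its 28 tested output genes 8 were called (28.6%, against 13.0% of all genes), 2 higher and 6 lower, with a median of -0.26. DUSP6 and SPRY2, feedback inhibitors commonly read as pathway output, were at 224 ± 8.82 against 159 ± 21.6 CPM and 306 ± 13.9 against 219 ± 17.2 CPM and stayed under the fold threshold (log2 fold changes -0.49 and -0.48). CCND1, cyclin D1, was not called (1148 ± 22.3 against 951 ± 17 CPM). The lower members were mainly genes that growth signals induce early, namely EGR2 (log2 fold change -2.36 ± 0.16), EGR3 (log2 fold change -1.69 ± 0.11), FOSL1, DUSP5 (log2 fold change -0.69 ± 0.07), MAFF (log2 fold change -0.72 ± 0.07) and IER3, an NF-kappaB and stress-induced survival gene (log2 fold change -1.42 ± 0.06). The higher members were EPHA2 and ETV5 (log2 fold change 0.66 ± 0.05).

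**Figure D4:**
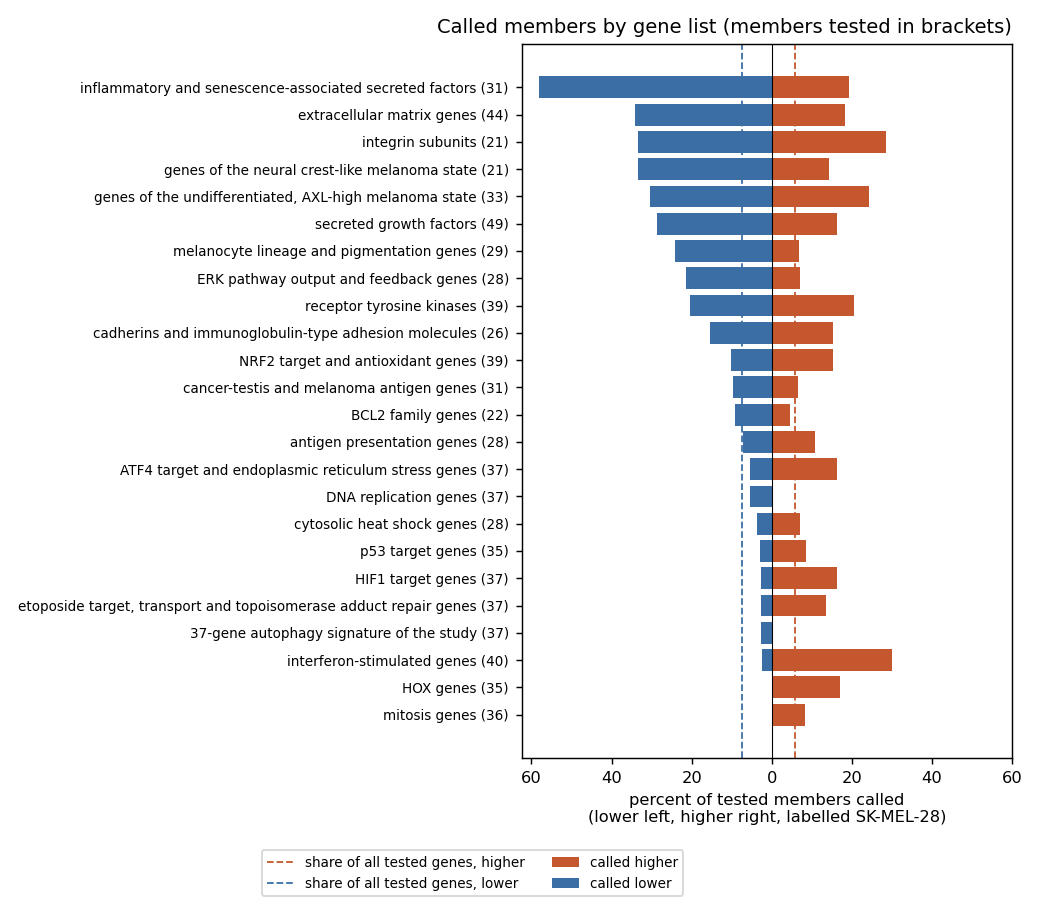
Percent of the tested members of each gene list called lower (bars to the left) or higher (bars to the right) in the libraries labelled SK-MEL-28, with the number of tested members in brackets and dashed lines at the shares of all tested genes (7.32% lower, 5.70% higher). The inflammatory, matrix and integrin lists reach far past both lines, the interferon list reaches to the higher side, and the autophagy and DNA replication lists stay short of both lines.

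Interferon-stimulated genes stood out to the higher side. Of 40 genes, all tested, 12 were higher (against 5.70% of all genes), 1 lower and 27 not called, with a median of 0.45. IFITM3, a membrane protein that blocks virus entry and the most abundant of the called members, was at 146, 159 and 154 CPM and 319.8, 325 and 303 CPM (log2 fold change 1.05 ± 0.05 (SE), adjusted p = 7.35e-09). IFITM2 was at 11.7, 14.7 and 14.2 CPM and 40.8, 36.6 and 35.7 CPM (log2 fold change 1.48 ± 0.10 (SE), adjusted p = 1.21e-07). IFITM1 (log2 fold change 1.96 ± 0.18), BST2, tetherin (log2 fold change 1.62 ± 0.21), IFIT1 (log2 fold change 1.75 ± 0.19), IFI44 (log2 fold change 1.18 ± 0.11), MX1 (log2 fold change 0.91 ± 0.10) and SAMD9L (log2 fold change 1.07 ± 0.10) were higher at low levels. These genes did not include all classical members. ISG15 (13.2 ± 2.53 against 16.5 ± 1.98 CPM) and OAS1 (15 ± 0.353 against 15.6 ± 0.641 CPM) were not called. IFI27 was under 1 CPM with overlapping ranges, and HERC5 was lower (log2 fold change -1.27 ± 0.15).

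Antigen presentation genes were called in 5 of 28 tested genes (17.9%, against 13.0% of all genes). CIITA, the master regulator of MHC class II, was at 269.7, 266 and 248 CPM and 496, 503 and 475 CPM (log2 fold change 0.91 ± 0.05 (SE), adjusted p = 2.19e-08). HLA-DMA (log2 fold change 0.62 ± 0.05) and HLA-DMB (log2 fold change 0.89 ± 0.06), which load class II molecules with peptide, were also higher. HLA-DOA, which modulates that loading, is not in this list and was named by its size in the whole comparison, where it was higher (log2 fold change 1.81 ± 0.08). The abundant class II genes CD74 (3296 ± 179 against 2580 ± 120.3 CPM) and HLA-DRA (639 ± 40.6 against 779 ± 26.6 CPM) were high under both labels and not called. HLA-B, a class I heavy chain (log2 fold change -0.68 ± 0.07), and CTSS, the protease that trims the invariant chain (log2 fold change -1.65 ± 0.07), were lower. HLA class I genes are close paralogs, so reads could be split among them.

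DNA breaks activate p53, and its target genes were called about as often as genes in general. Of 35 tested p53 targets, 4 were called (11.4%, against 13.0% of all genes), 3 higher and 1 lower, with a median of 0.16. CDKN1A, the cell cycle inhibitor p21, was abundant under both labels, at 1618, 1731 and 1646 CPM and 1918, 2053 and 2038 CPM, and MDM2, the p53 ubiquitin ligase, at 707, 710.0 and 727 CPM and 598, 563 and 598 CPM. Neither passed the fold threshold (log2 fold changes 0.27 and -0.28). The called targets were GDF15, CMBL (46.4 ± 3.14 against 78.4 ± 4.46 CPM), TNFRSF10C (3.64 ± 0.651 against 5.54 ± 0.605 CPM) and, lower, CD82, a tetraspanin (log2 fold change -1.21 ± 0.06). BBC3, FAS and TNFRSF10B, death-promoting targets, were not called.

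Genes of etoposide action and its repair were called in 6 of 37 tested genes (16.2%, against 13.0% of all genes), 5 higher and 1 lower. TOP2A, the isoform of the drug target tied to division, was at 43.2, 44.4 and 45.5 CPM and 68.8, 64 and 62.3 CPM and stayed under the fold threshold (log2 fold change 0.55). TOP2B, the other isoform, was not called (101 ± 3.12 against 102 ± 5.84 CPM, adjusted p = 0.875). TDP2, which removes trapped topoisomerase II from DNA, was not called (23.8 ± 1.05 against 22.6 ± 1.41 CPM). ABCB1, the P-glycoprotein that exports etoposide, was lower at 8.27, 7.81 and 9.14 CPM and 3.91, 2.92 and 3.14 CPM (log2 fold change -1.34 ± 0.15 (SE), adjusted p = 2.14e-05). Of the other 9 transporters tested, 3 were higher. ABCC2 was at 147, 145 and 145 CPM and 284, 276 and 264 CPM (log2 fold change 0.92 ± 0.05 (SE), adjusted p = 1.38e-08). ABCC5 was at 52.5 ± 2.36 against 108 ± 4.11 CPM (log2 fold change 1.04) and ABCG2 at 2.75 ± 0.246 against 4.32 ± 0.543 CPM (log2 fold change 0.65). ABCC1, a further exporter of the drug (83 ± 4.29 against 102 ± 3.96 CPM, log2 fold change 0.29), ABCC3, ABCC4, ABCC6, ABCC10 and ABCA1 were not called. SLFN11, which sensitizes cells to DNA-damaging drugs, was higher at 3.45, 4.43 and 3.84 CPM and 11.7, 10.6 and 11.7 CPM (log2 fold change 1.54 ± 0.13 (SE), adjusted p = 1.69e-06).

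In the BCL2 family 3 of 22 tested genes were called (13.6%, against 13.0% of all genes). These were BCL2A1 and BMF, a pro-death member (log2 fold change -1.04 ± 0.17), both lower, and BCL2L1, which encodes BCL-xL (log2 fold change 0.61 ± 0.07), higher. MCL1 (604 ± 14.1 against 500.0 ± 17.4 CPM) was abundant and not called.

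Among HIF1 targets 7 of 37 genes were called (18.9%, against 13.0% of all genes), 6 higher and 1 lower, with a median of 0.27. CA9, carbonic anhydrase 9 (log2 fold change 1.37 ± 0.11), ALDOC, an aldolase (log2 fold change 1.27 ± 0.08), SLC2A3, the glucose transporter GLUT3 (log2 fold change 0.93 ± 0.06), and PGK1, a glycolytic kinase (log2 fold change 0.59 ± 0.05), were higher. DDIT4, an mTORC1 inhibitor that is a target of both HIF1 and ATF4, was at 49.4, 53 and 47.4 CPM and 90, 84.3 and 104 CPM (log2 fold change 0.89 ± 0.08 (SE), adjusted p = 1.80e-06). LDHA and VEGFA were not called (1210 ± 39.6 against 1188 ± 47.6 CPM and 92.1 ± 5.06 against 79.5 ± 1.78 CPM).

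ATF4 and endoplasmic reticulum stress genes were called in 8 of 37 (21.6%, against 13.0% of all genes), 6 higher and 2 lower. PSAT1, of serine synthesis (log2 fold change 0.80 ± 0.07), ALDH1L2, a mitochondrial folate enzyme (log2 fold change 1.05 ± 0.12), and HYOU1, a chaperone (log2 fold change 0.61 ± 0.05), were higher. NUPR1, a stress-induced chromatin protein, had 9, 6 and 0 counts in the libraries labelled A375 and 53, 55 and 77 counts in those labelled SK-MEL-28, and was called higher. CEBPB (log2 fold change -0.93 ± 0.08) and PPP1R15A (log2 fold change -0.73 ± 0.06) were lower. ATF4, DDIT3, ASNS, TRIB3, HSPA5 and XBP1, the defining genes, were not called.

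NRF2 targets and antioxidant genes were called in 10 of 39 (25.6%, against 13.0% of all genes), 6 higher and 4 lower. FTL, the ferritin light chain, was at 771, 836 and 813 CPM and 1765, 1760 and 1677 CPM (log2 fold change 1.10 ± 0.05 (SE), adjusted p = 2.03e-09). GPX4, which reduces lipid peroxides, was lower at 131, 132 and 134 CPM and 76.5, 81.4 and 84 CPM (log2 fold change -0.71 ± 0.05 (SE), adjusted p = 4.56e-07). AKR1B1, aldose reductase, was lower too (log2 fold change -1.14 ± 0.05), and SOD2 belongs to this list as well. The defining targets NQO1 (698 ± 24.1 against 918 ± 8.92 CPM), HMOX1 (33.9 ± 1.35 against 29.9 ± 1.74 CPM), GCLM and TXNRD1 were not called. Of 28 tested cytosolic heat shock genes 3 were called (10.7%, against 13.0% of all genes). HSPB8 (log2 fold change 1.58 ± 0.09) and HSPA4L (log2 fold change 1.00 ± 0.09) were higher and HSPA6 lower at about 1 CPM.

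Of 36 mitosis genes 3 were called, all higher (8.33%, against 5.70% of all genes called higher), namely CDC20 (log2 fold change 0.64 ± 0.08), KIF20A (log2 fold change 0.74 ± 0.13) and ECT2 (log2 fold change 0.73 ± 0.08). The median of the list was 0.29, and none of its 5 defining genes was called. CCNB1 (log2 fold change 0.43 ± 0.08), AURKA (log2 fold change 0.44 ± 0.09) and PLK1 (log2 fold change 0.58 ± 0.11) were above the range of the libraries labelled A375 in every library labelled SK-MEL-28 but under the fold threshold. Such lack of overlap, in either direction, held for 44.6% of all tested genes. MKI67 (37.5 ± 2.13 against 40.8 ± 2.88 CPM) and CDK1 (14.6 ± 1.83 against 15.4 ± 1.49 CPM) overlapped. Of 37 DNA replication genes 2 were called, both lower (5.41%, against 7.32% of all genes called lower), namely E2F1 (log2 fold change -1.34 ± 0.10) and E2F2 (log2 fold change -1.01 ± 0.23). Of the 37 autophagy genes that the study used as a signature, only MAP1LC3A was called (2.70%, against 13.0% of all genes). It was lower at 22.2 ± 2.76 against 11.5 ± 1.07 CPM (log2 fold change -0.94). SQSTM1, the autophagy receptor p62 (2577 ± 94.8 against 1960 ± 83 CPM), MAP1LC3B (177 ± 1.12 against 154 ± 13.1 CPM) and ATG5 (23.4 ± 0.404 against 20.7 ± 1.62 CPM) were not called.

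Genes that tend to mark the origin of a cell line are useful for comparing labels. HOX genes record position along the body axis. Of 35 tested 6 were higher and none lower (17.1% called, against 13.0% of all genes), with a median of 0.02. HOXB8 (log2 fold change 1.497 ± 0.12), HOXB9 (log2 fold change 0.98 ± 0.13), HOXB5 (log2 fold change 0.80 ± 0.14) and HOXB6 (log2 fold change 0.62 ± 0.09) belong to the HOXB cluster. HOXB7, in the same cluster, was not called (23.5 ± 0.794 against 24.4 ± 1 CPM). Cancer-testis genes, normally silent outside the germline, are switched on in patterns that vary between tumours. Of 31 tested 5 were called (16.1%, against 13.0% of all genes). MAGEA4 was at 648, 712 and 701 CPM and 760.1, 849.8 and 870.1 CPM, MAGEA3 at 187, 191 and 182 CPM and 191, 221 and 215 CPM, and PRAME at 156, 152 and 158 CPM and 160.2, 168 and 169 CPM. None of these 3 was called. MAGEA1 was higher at 4.25, 4.67 and 4.98 CPM and 26.4, 27.2 and 25.7 CPM (log2 fold change 2.51 ± 0.10 (SE), adjusted p = 1.14e-09). GAGE1 (1.81 ± 0.258 against 0.162 ± 0.0994 CPM) and GAGE2A (2.79 ± 0.267 against 0.737 ± 0.0809 CPM) were lower, but GAGE genes are near-identical copies among which reads could be split.

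Further genes led the comparison by size. FDCSP, a secreted peptide, was lower at 84.4, 108 and 105 CPM and 2.62, 4.33 and 2.96 CPM (log2 fold change -4.91 ± 0.15 (SE), adjusted p = 1.08e-10). TFPI2, a protease inhibitor of the matrix, was at 235, 233 and 245 CPM and 30.8, 27.2 and 28.5 CPM (log2 fold change -3.04 ± 0.06 (SE), adjusted p = 2.12e-12). The lower side also held SLC16A6, a transporter of the monocarboxylate family (log2 fold change -3.42 ± 0.10), FLRT2, an adhesion and guidance protein (log2 fold change -3.23 ± 0.08), and MIR3142HG, a host gene of microRNAs (log2 fold change -3.38 ± 0.13). MTATP6P1, a nuclear pseudogene copy of a mitochondrial gene, was higher at 36.8, 54.3 and 41.2 CPM and 1199, 941 and 1057 CPM (log2 fold change 4.60 ± 0.13 (SE), adjusted p = 6.17e-11). Its locus holds 3 gene names and its mitochondrial original is nearly identical, so where its reads came from is uncertain. Also on the higher side CPA4, a carboxypeptidase, was at 5.48, 4.29 and 6.44 CPM and 52.8, 46.9 and 45.9 CPM (log2 fold change 3.17 ± 0.12 (SE), adjusted p = 8.33e-10). The same side held F2RL2, a protease-activated receptor (log2 fold change 2.06 ± 0.10), AGMO, an ether lipid enzyme (log2 fold change 2.09 ± 0.08), SUSD2 (log2 fold change 1.88 ± 0.09) and PDZD2 (log2 fold change 1.82 ± 0.08). IRAK1, a kinase of interleukin-1 and Toll-like receptor signalling, was higher at 221, 228 and 213 CPM and 526, 573 and 536 CPM (log2 fold change 1.303 ± 0.05 (SE), adjusted p = 1.02e-09). S100A4 (459 ± 36.9 against 708 ± 54.1 CPM) and S100A16 (345 ± 5.63 against 527 ± 24.4 CPM) were just past the fold threshold and lost the call under some alternatives.

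Markers of other cell types ranged from undetected to over 100 CPM. Of 15 immune markers 9 did not pass the filter. Of the 6 tested, 2 were called (33.3%, against 13.0% of all genes), CD4 higher and ITGAM lower, both under 3 CPM in every library. The summed level of the list was 28.5 to 42.9 CPM in the libraries labelled A375 and 25.8 to 29.9 in those labelled SK-MEL-28, most of it CD68 (29.3 ± 6.40 against 22 ± 1.82 CPM), a lysosomal protein that is not restricted to immune cells. Epithelial markers summed to 291 to 315 CPM and 417 to 419 CPM, and 3 of 8 tested were called (37.5%, against 13.0% of all genes). KRT8 (log2 fold change 1.11 ± 0.06) and KRT18 (log2 fold change 0.64 ± 0.06) were higher and DSP (log2 fold change -0.62 ± 0.09) lower. EPCAM had no more than 7 counts in any library. Fibroblast markers summed to 100.1 to 101.5 CPM and 115 to 123 CPM, and endothelial markers to 141 to 151 CPM and 115 to 118 CPM. Of 8 tested fibroblast markers 3 were called (37.5%, against 13.0% of all genes). LUM and FAP (log2 fold change 1.29 ± 0.29) were higher and DCN lower. Of 8 tested endothelial markers 2 were called, TIE1 higher (log2 fold change 1.56 ± 0.41) and PECAM1 lower (log2 fold change -1.22 ± 0.19). FAP and TIE1 were under 2 CPM in every library. The largest of these lists were ACTA2 (53.8 ± 2.93 against 52.8 ± 2.49 CPM), KDR (82.9 ± 4.50 against 63.6 ± 1.92 CPM) and ROBO4 (49.2 ± 2.94 against 44.1 ± 1.28 CPM), none of them called. Their part in the results was not tested. In bulk RNA a smaller share of cells expressing a gene and less RNA per cell cannot be told apart.

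Neighbouring genes differed together at the ends of chromosomes 3 and 1. Medians of single chromosomes ran from -0.11 (chromosome 20) to 0.08 (X), and 96.8% of 12478 overlapping runs of 25 neighbouring protein-coding genes had a median within 0.3 of 0. The end of chromosome 3, from SMC4 to LMLN (GRCh38, chr3:160399274-198043720), held 134 such genes with a median log2 fold change of 0.52, and 114 of them were above 0; 53 were called higher and 6 lower. On the rest of chromosome 3 the median was 0.03, and of 602 genes 33 were called higher and 36 lower. The end of chromosome 1, from DENND4B to PGBD2 (chr1:153929501-248919946), held 480 genes with a median of -0.30, of which 408 were below 0, 10 were called higher and 84 lower. On the rest of chromosome 1 the median was 0.03, and of 853 genes 55 were called higher and 60 lower. Over all tested genes 5.70% were called higher and 7.32% lower. A stretch was taken as the longest end of a chromosome in which every run had a median at least 0.15 from 0. This rule was applied to chromosomes 3 and 1 only. The values of a stretch are therefore a description of what was chosen. IL1RAP, ETV5, ABCC5 and ECT2 lie in the stretch of chromosome 3, and RXRG, NES, LAMB3, DDR2, HSPA6 and PTGS2 in that of chromosome 1. The lowest run, with a median of -0.72, lay on chromosome 4 from IGFBP7 to PARM1 (chr4:57030773-75050115), and 4 of its 25 genes were above 0. It holds CXCL8, CXCL1, CXCL2 and CXCL3 among other genes, FDCSP being one of them. Copy number was not measured.

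**Figure D5:**
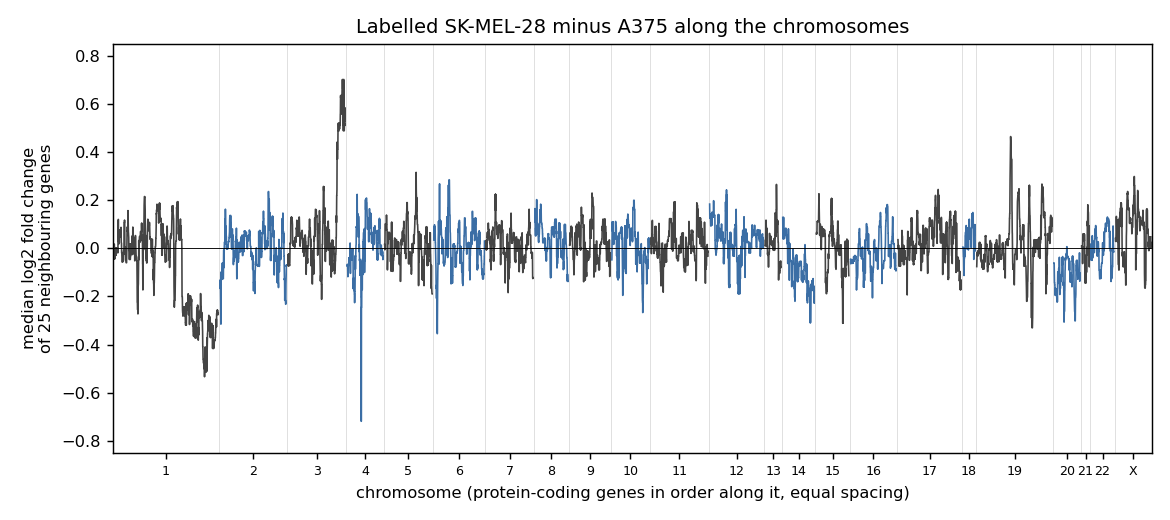
Median log2 fold change (libraries labelled SK-MEL-28 minus A375) of each run of 25 neighbouring protein-coding genes, in order along each chromosome. The end of chromosome 3 lies above 0, reaching 0.70, and the end of chromosome 1 below it. A narrow dip to -0.72 on chromosome 4 covers a run that holds CXCL8, CXCL1, CXCL2 and CXCL3 among other genes.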

How the data were processed

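Reads were aligned by the authors to GRCh38 (HISAT2 2.2.0, then Samtools 1.3.1), and genes were quantified with StringTie 2.1.4 on Ensembl release 90. The deposited values are raw counts in whole numbers. How coverage became counts is not given in the sources used here. Library totals exceed the numbers of clean reads that the study lists, so 1 count need not be 1 read or read pair. Library totals were 28189501 to 32499337 counts, and precision was taken from the spread between replicates. Rows with no gene name (5 of 58312, at most 0.00415% of a library's counts) were left out. Of the rest, 5209 rows, with 22.7% of the counts, share a locus with a second gene name. Among named genes these include IL1RAP, L1CAM, ITGA1 and ITGB3. IL1RAP and WNT5A each have 2 rows of their name, of which 1 is reported. Positions came from GENCODE release 44 (GRCh38), with 28176 rows matched by identifier, 19590 by name, 762 by an older symbol and 9779 not matched.

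The 6 etoposide libraries alone were fitted with edgeR 4.0.16 in R 4.3.3 (filterByExpr with a minimum count of 10, TMM, glmQLFit and glmQLFTest). Adjusted p-values are Benjamini-Hochberg values over all 19025 genes tested. A gene was called where this value was below 0.05 and the groups differed by more than 1.5-fold. Standard errors were derived from each log2 fold change and its F statistic (the fold change over the root of F). The fit was tested on simulated data. Alternatives were DESeq2 1.42.0, its size factors in edgeR, library totals, 2 other filters, the replicate number as a block, other fold thresholds, a test against a 1.5-fold change, counts halved and rounded, rows of one name summed and each library left out; rows with 1 gene name at the locus were added after seeing the data.

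The comparison and the gene lists were chosen with earlier results of these data known. Named genes were the 12 in each direction with the largest log2 fold change among called genes without overlap and with at least 1000 normalized counts in the higher group, the 6 in each direction with the largest difference in TPM (read counts per length of gene) among called protein-coding genes, and, in each list, the defining genes, up to 6 further called members in each direction and the 2 uncalled members with the highest mean, with Y-linked genes and XIST excepted throughout; some were left out. PLAUR, COL5A1, COL6A2, COL18A1, COL4A1, COL4A2, DUSP5, MAFF, FLT1, EPHB2, CCL20, CXCL10, LIF, IL1A, IL1B, NFKBIA, TNFAIP3 and other list members outside this rule were named after their values were seen. Some list members are counted in their lists but not reported here by name or plotted singly.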

Additional observations from a re-analysis of the deposited data

How the results depend on the processing

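Counts of called genes under other tools, scalings, filters and row choices ran from 2195 (filter of 1 count in any library) to 2477 (DESeq2 size factors in edgeR), against 2477 as reported; DESeq2 called 2336, of which 2309 were shared. Leaving out each library gave 2264 to 2366 called genes, 961 to 1052 higher and 1283 to 1330 lower. With no fold threshold 6037 genes were called, 2901 higher and 3136 lower, and 27 interferon-stimulated genes were higher. With a fold change over 4 these were 311, 119 and 192, with 9 inflammatory genes lower and 0 interferon-stimulated genes higher. A test against a 1.5-fold change called 1070 genes, 423 higher and 647 lower. The replicate numbers did not pair the libraries: correlations of the deviations of same-numbered libraries were 0.037, 0.004 and -0.008. The fit with the replicate number as a block called 2423 genes, 1060 higher and 1363 lower. Rows with 1 gene name at the locus gave 2266. No named gene or list changed direction while called under any of these. Changes near the threshold, such as NGFR, ITGB3, S100A4, S100A16, AQP1 and HSPA6, lost or gained a call under some. The depth limits statements on genes under 1 CPM, where a library held about 30 counts or fewer.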
